A study of Mus musculus with 2 samples.

Results

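Oligodendrocyte precursor cells (OPCs) of the mouse optic nerve were selected by unique molecular identifiers (UMIs), the tags that count captured RNA molecules. A barcode with 500 or more genes and no more than 10% mitochondrial UMIs was kept as an OPC when it held at least 1 UMI of Pdgfra and at least 3 of Ptprz1, Cspg5 and Lhfpl3 together. It could hold at most 2 UMIs of collagen genes and decorin (Col1a1, Col1a2, Dcn), 2 of Mog and Mag, 1 of the Cd3 genes and 3 of the C1q genes, which mark fibroblasts, oligodendrocytes, T cells and microglia or macrophages. This gate took 712 of 19784 barcodes past the quality limits, 615 of 12605 from mice given anti-PD-1 and 97 of 7179 from mice given anti-TIGIT.

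Both libraries came from Nf1-OPG mice (Nf1flox/neo; GFAP-Cre), a model of optic pathway glioma, at 12 weeks of age. One Nf1 allele carries a neo cassette in exon 31 in every cell and the floxed allele is removed by Cre in neuroglial progenitors, so descendants of such progenitors may lack both copies, and the files do not show in which cells that happened. Mice of the first group were treated with an antibody against PD-1 (labelled anti-PDCD1) and mice of the second with an antibody against TIGIT, both inhibitory receptors of T cells and natural killer cells, and the optic nerves of 10 mice were pooled into 1 library per treatment. Doses and schedules are not given in the sources used here, no library of untreated mice was analysed here, and the labels' protocol also speaks of meningeal dura. With 1 library per treatment there is no replicate check, no test was run and no p-value is given: each interval below is at 95% and covers counting error only, not the spread between mice, nerves or preparations.

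OPCs are the dividing glial progenitors of the central nervous system. They carry the receptor for platelet-derived growth factor A (Pdgfra) and the proteoglycan NG2 (Cspg4), receive synaptic input from axons, and give rise to the oligodendrocytes that wrap optic nerve axons in myelin. In inflamed white matter, OPCs respond to interferons and can raise the genes that present antigen to T cells, and in neurofibromatosis-associated glioma they are among the progenitors studied as cells of origin.

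The whole libraries held 13997 barcodes with 85031565 UMIs (anti-PD-1) and 7915 barcodes with 40733655 UMIs (anti-TIGIT). The OPCs had a median of 5774 UMIs and 2814 genes in the anti-PD-1 library, against 4367 UMIs and 2444 genes in the anti-TIGIT library. Their summed depth was 3728520 and 428553 UMIs, so that 1 UMI of the anti-TIGIT sum weighs 2.33 CPM (counts per 1000000 UMIs). The libraries shared 163 barcodes, none of which was an OPC in both, and Scrublet called 21 of the 615 and 2 of the 97 OPCs as doublets. Ribosomal protein genes made up 9.64% and 6.30% of OPC UMIs and mitochondrial genes 1.78% and 2.04%. A plasma cell gene, Jchain, was concentrated in a few barcodes: 1 barcode held 63.4% of its OPC UMIs in the anti-PD-1 library and 1 held 96.9% in the anti-TIGIT library.

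The label was checked against genes the gate did not use. Tnr, which encodes the matrix protein tenascin-R, stood at 759 CPM in anti-PD-1 OPCs and 1232 CPM in anti-TIGIT OPCs, against at most 30.5 CPM in oligodendrocytes, T cells, C1q-positive cells and fibroblasts gated by their own markers. C1ql1, a secreted synaptic organiser of OPCs, stood at 559 and 866 CPM, and at most 4.38 CPM in those classes. The lineage transcription factors were present at 3384 and 4014 CPM for Olig1, 819 and 831 CPM for Olig2 and 628 and 583 CPM for Sox10. After each cell was thinned to 2000 UMIs, the adhesion molecule Cntn1 had a UMI in 85.9% and 92.4% of OPCs and in 0.801% and 0.914% of oligodendrocytes. Since all these genes come from the cells that were gated, they describe the cells and test nothing.

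The 20 genes that stood furthest above the other 4 classes in both libraries were mostly genes of neural adhesion, synapses and channels. They included the neurexin Nrxn3 (1062 and 982 CPM), the neurexin ligand Nxph1 (584 and 866 CPM), the G protein subunit Gng3 (867 and 915 CPM), the potassium channel Kcnd2 (995 and 1120 CPM) and the glutamate receptor Grm5 (479 and 478 CPM). Neu4, a sialidase of committed OPCs, stood at 465 and 681 CPM. On the log2 scale of CPM plus 5, the 20 genes were 5.26 to 7.13 above the highest other class under anti-PD-1 and 5.32 to 6.97 above it under anti-TIGIT. No other class reached an OPC level for any of them.

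**Figure D1:**
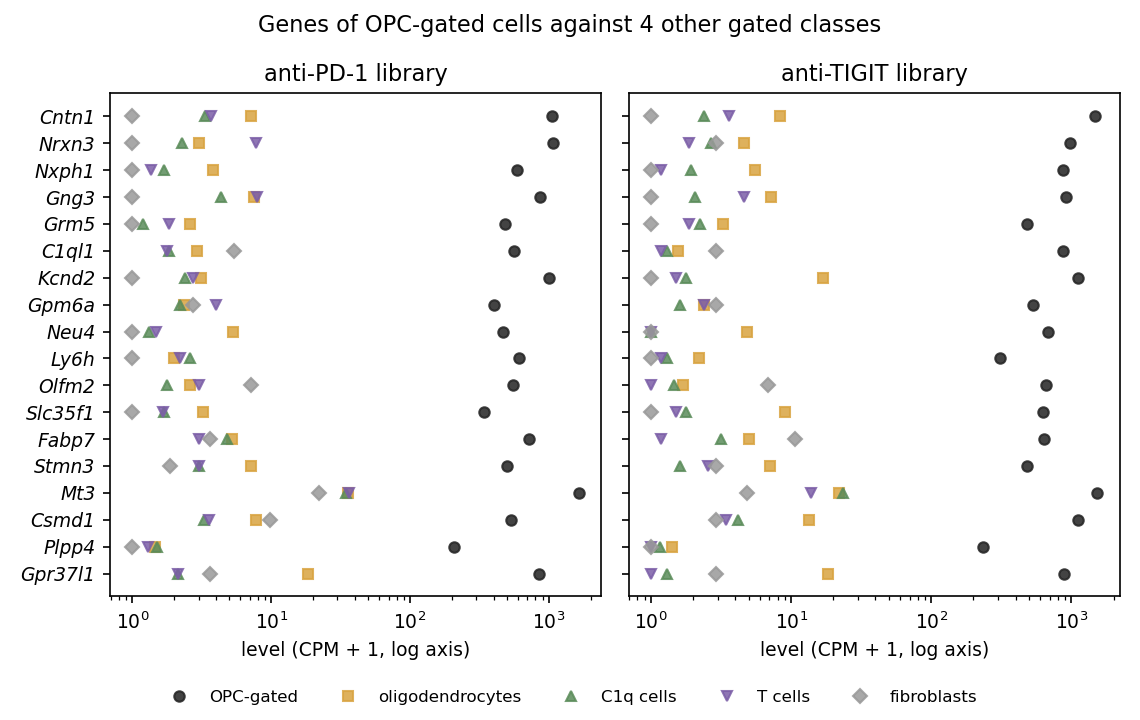
Level of 18 of the 20 genes furthest above the other classes (CPM plus 1, log axis) in OPCs and 4 other gated classes, in the anti-PD-1 library (left) and the anti-TIGIT library (right); each point is the summed UMIs of a class in 1 library. The OPC points lie to the right of every other class in both panels, at 207 CPM (Plpp4, anti-PD-1) or more.

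Traces of other cell types were measured with fixed marker lists. The astrocyte genes Slc1a2 and Aldoc, which OPCs also transcribe, stood at 310.3 and 362 CPM and at 502 and 541 CPM, while Aqp4 (14.8 and 9.33 CPM) and Gja1 (2.41 and 2.33 CPM) were near 0. The summed level of 10 microglia and macrophage markers was 75.4 CPM in anti-PD-1 OPCs and 84.0 CPM in anti-TIGIT OPCs, with Ms4a7 at 0 in both and Tmem119, Csf1r and Pf4 at 0 in the second. Fibroblast markers summed to 6.44 and 2.33 CPM, vascular markers to 6.97 and 2.33 CPM with Cldn5 and Kcnj8 at 0 in both, and neuronal markers to 81.3 and 114 CPM with Rbfox3 at 0 in both. The 7 T cell markers summed to 53.1 and 145 CPM, with Cd2 and Trac at 0 in the anti-TIGIT OPCs. All 3 of them with at least 10 counts stood higher in the anti-TIGIT OPCs, 2 at least 2-fold. Their median log2 ratio, anti-PD-1 over anti-TIGIT, was -1.19 with 5 CPM added. The 4 plasma and B cell genes summed to 519 and 2606 CPM, almost all of it Jchain.

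Cells at the edges of the gate differed in how far they carried the OPC genes. The median OPC held 4.0 Pdgfra UMIs in each library, with at most 26 and 23, and 42.0 and 32.0 UMIs of the 3 gate markers together. A further 72 and 15 barcodes met every limit but held no Pdgfra UMI. They carried C1ql1 at 268 and 151 CPM and Olig1 at 1756 and 757 CPM, below the OPC values. Tnr was below the OPC value in the first library, at 351 CPM, and above it in the second, at 2085 CPM. The 74 and 9 OPCs with exactly 1 Pdgfra UMI carried C1ql1 at 558 and 949 CPM and Olig1 at 3401 and 3676 CPM, close to all OPCs. At the marker threshold, 4 barcodes of the anti-PD-1 library with 2 UMIs were left out and 3 with 3 UMIs were kept, and the anti-TIGIT library had none of either. Before the exclusion limits, 756 and 103 barcodes met the OPC criteria.

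OPCs were a larger share of the anti-PD-1 library. Under anti-PD-1 they made up 4.88% of quality barcodes (4.51 to 5.27%) and under anti-TIGIT 1.35% (1.10 to 1.65%), which is 3.53 percentage points apart (3.06 to 3.99). Counting only OPCs without a UMI of the 8-gene panel that marked part of the anti-PD-1 OPCs, the shares were 2.18% and 1.31%, 0.872 points apart. This leaves out 340 of 615 and 3 of 97 OPCs. The panel genes were chosen for their ratio between these libraries, so the smaller difference follows in part from that choice. With the gate applied to barcodes thinned to 2000 UMIs, the shares were 4.76% of 10482 and 1.30% of 6245, since 2123 and 934 barcodes were too shallow. Oligodendrocytes went the other way, at 17.3% and 26.7% of barcodes, so that OPCs were 615 of 2799 (20.5 to 23.6%) and 97 of 2014 (3.92 to 5.84%) of OPCs and oligodendrocytes together. A share in a sorted suspension depends on which other cells survived dissociation, myelin removal and sorting, and more OPCs and fewer other cells cannot be told apart here.

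Xist and Y-linked UMIs were both found in each library, and the shares were also taken within cells called by those genes. Among barcodes with Xist and no Y-linked UMI, 175 of 3203 (5.46%, 4.70 to 6.31%) were OPCs under anti-PD-1 and 38 of 1522 (2.50%, 1.77 to 3.41%) under anti-TIGIT. Among barcodes with Y-linked UMIs and no Xist, 221 of 3566 (6.20%, 5.43 to 7.04%) and 26 of 2518 (1.03%, 0.676 to 1.51%) were OPCs. The anti-PD-1 share was the higher in both, and the intervals did not overlap.

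**Figure D2:**
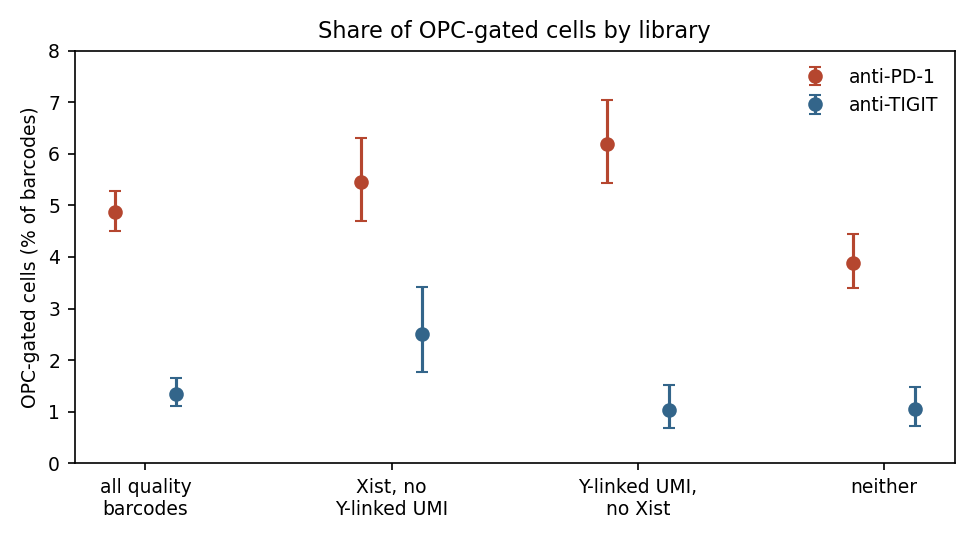
Share of quality barcodes that were OPCs (percent, y axis) in each library, for all barcodes, those with Xist only, those with Y-linked UMIs only and those with neither; error bars are 95% exact binomial intervals of counting error. In all 4 pairs the anti-PD-1 share lies above the anti-TIGIT share, at 4.88% against 1.35% for all barcodes and 3.89% against 1.05% for those with neither.

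Gene levels were compared as UMIs summed over the OPCs of a library, in CPM of that sum. Of 9503 genes with at least 50 counts over both libraries, 336 (3.54%) were at least 2-fold higher in anti-PD-1 OPCs and 165 (1.74%) at least 2-fold lower, after 5 CPM was added to each value. The median gene stood at a log2 ratio of -0.10. For gene lists a minimum of 10 counts was used, under which 535 of 13250 genes (4.04%) were higher and 374 (2.82%) lower, with a median of -0.08. Of these 13250 genes, 5741 stood above 0. The 12 genes with the largest ratios upward were Fcgr2b, Iigp1, Isg15, Vgf, Bcl3, Sv2c, Dlk1, Ifit3, Gbp4, Clca3a1, Hmga2 and Plscr2. The 12 downward were Jchain, Ryr3, Unc13c, Dusp15, Fam189a1, Zfp804a, Htr1f, Adam23, Cdh4, Kcnn2, Sh3rf3 and Atp2b2. These were named by the size of the ratio, so their ratios describe the libraries and test nothing.

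RNA of the genes for antigen presentation by MHC class I was higher in anti-PD-1 OPCs for every gene counted. All 20 genes of the list with at least 10 counts stood above 0, 15 of them at least 2-fold (against 4.04% of all genes), with a median log2 ratio of 1.52 against -0.08 for all genes. B2m, the invariant light chain, stood at 1550 CPM (5779 UMIs) in anti-PD-1 OPCs and 495 CPM (212 UMIs) in anti-TIGIT OPCs, 3.13-fold higher (log2 1.65, 1.45 to 1.85). The classical heavy chain H2-D1 stood at 1810 and 478 CPM (3.78-fold, log2 1.92, 1.72 to 2.13). H2-K1, also a classical heavy chain, stood at 1766 and 558 CPM (3.17-fold), and the non-classical H2-Q4 at 389 and 65.3 CPM (5.95-fold). H2 genes share sequence, and reads that fit several of them may be divided unevenly.

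The genes that supply peptides to these molecules were higher as well. Tap1, a subunit of the peptide transporter, stood at 92.5 and 18.7 CPM (4.96-fold). The immunoproteasome subunits Psmb8 and Psmb9 stood at 453 and 100.3 CPM (4.51-fold) and at 169 and 53.7 CPM (3.14-fold). Nlrc5, the transactivator of class I genes, stood at 54.7 and 16.3 CPM (log2 1.74, 0.67 to 3.08).

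MHC class II genes were mostly higher, by an amount that changed with the cells counted. Of 8 genes, 7 stood above 0 and 1 below, and 3 were 2-fold or more higher in anti-PD-1 OPCs, with a median log2 ratio of 0.66. The median was 2.16 without Scrublet doublets, 2.83 with the gate applied to thinned barcodes, 2.73 in OPCs with Xist and 2.92 in those with Y-linked UMIs. It was -0.16 without OPCs that held a Jchain UMI and -0.05 without OPCs that held a UMI of the 8-gene panel. Cd74, the invariant chain, stood at 849 and 733 CPM, while H2-DMb1, a peptide loading subunit, stood at 66.5 and 9.33 CPM. The Cd74 sums were close but came from unequal shares of cells. After thinning, 33.3% of anti-PD-1 OPCs and 8.70% of anti-TIGIT OPCs had a Cd74 UMI. The same shares were 14.5% and 7.47% in oligodendrocytes, 34.6% and 21.4% in T cells and 94.5% and 85.3% in C1q-positive cells, which express it strongly. The OPC share stood above that of oligodendrocytes and below that of T cells in each library, and low expression and free RNA cannot be told apart here.

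Genes of the interferon gamma pathway were mostly higher in anti-PD-1 OPCs. Of 26 genes, 23 stood above 0, 18 of them at least 2-fold, and 0 were 2-fold lower, with a median log2 ratio of 1.75. The receptor subunits did not reach 2-fold and pointed in opposite directions: Ifngr1 stood at 43.4 and 49.0 CPM and Ifngr2 at 27.1 and 14.0 CPM (101 and 6 UMIs). The kinases Jak1 and Jak2 stood at 34.9 and 58.3 CPM and at 74.3 and 95.7 CPM. Irf1, a transcription factor induced by interferon gamma, stood at 275 and 112 CPM (2.45-fold). Socs3, a feedback inhibitor of cytokine signalling, stood at 734 and 376 CPM.

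The list includes the interferon-inducible GTPases, which disrupt the vacuoles of intracellular pathogens. Iigp1 had 1322 UMIs in anti-PD-1 OPCs and 3 in anti-TIGIT OPCs, or 355 and 7.00 CPM (50.6-fold, log2 5.66, 4.11 to 7.94). Tgtp2 stood at 274 and 32.7 CPM (8.38-fold), Ifi47 at 199 and 30.3 CPM (6.55-fold), Igtp at 277 and 74.7 CPM (3.71-fold) and Irgm1 at 442 and 121 CPM (3.64-fold). The guanylate-binding proteins Gbp2 and Gbp4 stood at 36.2 and 42.1 CPM in anti-PD-1 OPCs and had 0 UMIs in anti-TIGIT OPCs, at least 5.17-fold and 6.02-fold higher against a floor of 3 UMIs per library. Each of these 7 GTPases was higher in the anti-PD-1 library. Irf8, a transcription factor of the same list, stood at 35.9 CPM and 0 UMIs, at least 5.13-fold higher. In anti-PD-1 cells, Iigp1 stood at 360.3 CPM in OPCs with Xist and 364 CPM in those with Y-linked UMIs, and at 0 UMIs in anti-TIGIT OPCs of either kind.

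Genes that respond to type I interferon, the antiviral family that includes interferon beta, were also higher. Of 22 genes, 15 were at least 2-fold higher and 0 lower, with a median log2 ratio of 2.04. Isg15, a ubiquitin-like protein, had 951 UMIs in anti-PD-1 OPCs and 3 in anti-TIGIT OPCs, or 255 and 7.00 CPM (36.4-fold, log2 5.19, 3.64 to 7.47). Ifit3, an RNA-binding antiviral protein, stood at 212 and 16.3 CPM (13.0-fold, log2 3.70, 2.65 to 5.02). Rtp4 stood at 199 and 32.7 CPM (6.10-fold), Bst2, which tethers virions to the cell surface, at 260.2 and 56.0 CPM (4.65-fold) and Ifit1 at 108 and 25.7 CPM (4.20-fold). Irf7, the factor that amplifies the response, stood at 34.6 CPM and 0 UMIs, at least 4.94-fold higher. The receptor subunits Ifnar1 (25.2 and 32.7 CPM) and Ifnar2 (81.5 and 60.7 CPM) did not reach a 2-fold difference. Many genes answer to both interferon families, so the lists do not separate them.

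Promoters of 4 of these genes are printed because they hold the sequences that interferon-activated factors are known to bind and belong to genes with some of the largest or best-counted differences. Each is the 250 bases before the annotated start, 5′ to 3′ on the gene's strand, from RefSeq on GRCm38.p6. They lie at chr4:156200819-156201068 on the minus strand (Isg15), chr19:34583279-34583528 on the plus strand (Ifit3), chr11:49064213-49064462 on the minus strand (Tgtp2) and chr2:122147437-122147686 on the plus strand (B2m). Capitals mark GAAA, any 2 bases and GAAA again, on either strand (TTTC, any 2 bases and TTTC on the other), a short form of the interferon-stimulated response element (ISRE), and TTCNNNGAA, which reads the same on both strands, a short form of the gamma-activated site (GAS). The ISRE and GAS matches do not overlap each other in these promoters.
Isg15: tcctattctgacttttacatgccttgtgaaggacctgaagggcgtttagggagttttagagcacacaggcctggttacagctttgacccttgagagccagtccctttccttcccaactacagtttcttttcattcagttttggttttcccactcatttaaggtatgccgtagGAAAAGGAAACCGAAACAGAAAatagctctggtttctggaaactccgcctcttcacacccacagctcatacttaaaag
Ifit3: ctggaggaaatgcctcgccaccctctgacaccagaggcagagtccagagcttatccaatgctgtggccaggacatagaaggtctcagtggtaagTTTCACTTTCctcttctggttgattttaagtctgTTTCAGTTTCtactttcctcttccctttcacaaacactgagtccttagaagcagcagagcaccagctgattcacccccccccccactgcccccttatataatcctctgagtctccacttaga
Tgtp2: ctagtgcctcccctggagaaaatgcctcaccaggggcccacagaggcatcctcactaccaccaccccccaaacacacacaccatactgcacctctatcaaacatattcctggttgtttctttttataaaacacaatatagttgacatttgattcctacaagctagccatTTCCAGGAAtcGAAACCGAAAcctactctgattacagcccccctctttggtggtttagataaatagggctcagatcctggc
B2m: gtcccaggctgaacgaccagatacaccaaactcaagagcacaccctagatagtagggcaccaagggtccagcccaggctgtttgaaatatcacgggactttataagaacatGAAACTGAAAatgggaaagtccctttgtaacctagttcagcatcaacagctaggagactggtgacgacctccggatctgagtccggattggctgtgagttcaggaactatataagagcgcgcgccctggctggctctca
In Isg15, 3 overlapping ISRE matches began 78, 72 and 66 bases before the start. In Ifit3, matches began 156 and 122 bases before the start, and in B2m 139 bases before it. Tgtp2 held a GAS match 81 and an ISRE match 70 bases before the start. An ISRE match was present in 11 of 20 interferon gamma genes with a promoter row (55.0%), 8 of 17 type I interferon genes (47.1%) and 3 of 17 MHC class I genes (17.6%), against 3.46% of all 27025 genes. A GAS match was present in 45.0%, 23.5% and 11.8% of them, against 8.13% of all genes. None of 12 matrix genes held either match. Of 14 synapse and channel genes, 1 held an ISRE match (7.14%) and 2 a GAS match (14.3%). Of 13 reactive glia genes, 0 held an ISRE match and 1 a GAS match (7.69%). Of 16 lineage transcription factors, 0 held an ISRE match and 1 a GAS match (6.25%). A match is a description of these letters and shows no binding.

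The interferon and class I genes were spread across the anti-PD-1 OPCs, but unevenly. With each cell thinned to 2000 UMIs, 597 and 92 OPCs remained, and 18 and 5 were too shallow. The summed UMIs of the 21 class I genes had a median of 15 per anti-PD-1 OPC, with quartiles of 4 and 23. In anti-TIGIT OPCs the median was 2, with quartiles of 1 and 3 and the highest cell at 34. At least 10 such UMIs were found in 367 of 597 OPCs (61.5%) and in 8 of 92 (8.70%). The sum over 48 interferon-responsive genes had medians of 8 and 2.50. Across cells, the class I and interferon sums had a Spearman correlation of 0.74 over 597 anti-PD-1 OPCs and 0.48 over 92 anti-TIGIT OPCs, all of 1 library each.

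**Figure D3:**
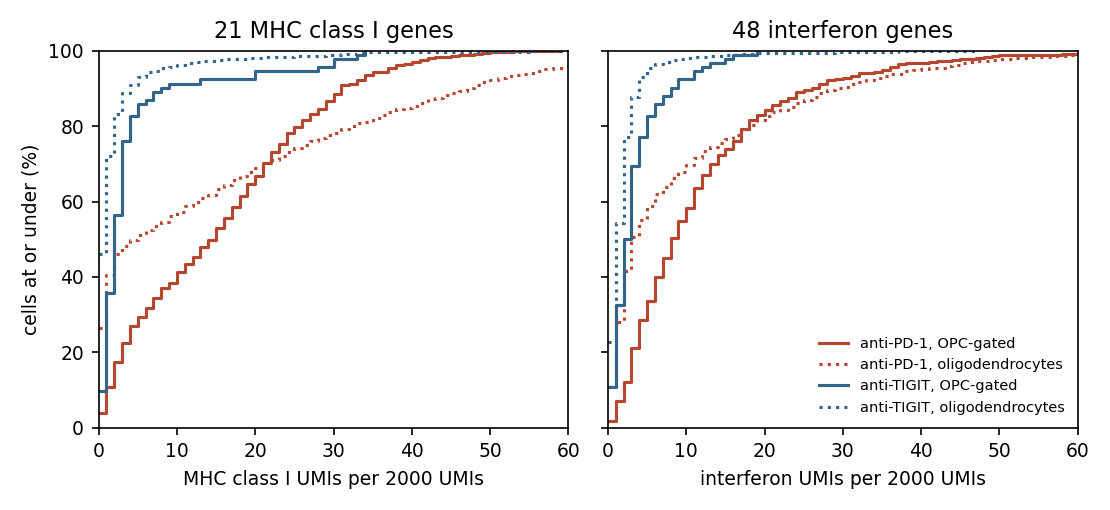
Cumulative share of cells (percent, y axis) at or under each summed UMI count per cell (x axis) after thinning to 2000 UMIs, for 21 MHC class I genes (left) and 48 interferon genes (right); solid lines are OPCs (597 anti-PD-1, 92 anti-TIGIT), dotted lines oligodendrocytes (1998 and 1860). The anti-PD-1 OPC curves lie to the right of the anti-TIGIT curves: 61.5% of anti-PD-1 OPCs hold at least 10 class I UMIs, against 8.70%.

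The same lists were read in the other gated classes of the same libraries. In oligodendrocytes, 1.23% of all genes were 2-fold or more higher and 0.349% lower under anti-PD-1, and 20 of 21 class I, 22 of 26 interferon gamma and 17 of 22 type I interferon genes were higher, with median log2 ratios of 2.40, 2.64 and 1.95. In C1q-positive cells (1.37% of all genes higher and 2.05% lower), 2 class I, 6 interferon gamma and 0 type I genes were higher, with medians of 0.61, 0.60 and 0.22. In T cells (0.974% higher and 0.507% lower), 0 genes of the 3 lists were higher, with medians of 0.07, -0.04 and -0.10. In fibroblasts (2.62% higher and 3.30% lower), 3 class I, 0 interferon gamma and 0 type I genes were higher, with medians of 0.24, -0.29 and -0.52, and 2 interferon gamma genes and 8 of 21 type I genes were 2-fold lower. Medians of the class I sum per thinned cell were 5 and 1 in oligodendrocytes, 31 and 18 in C1q-positive cells and 29 and 28 in T cells. The anti-TIGIT OPCs and oligodendrocytes thus held few class I UMIs, and T cells held many in both libraries. A difference between classes was not tested.

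**Figure D4:**
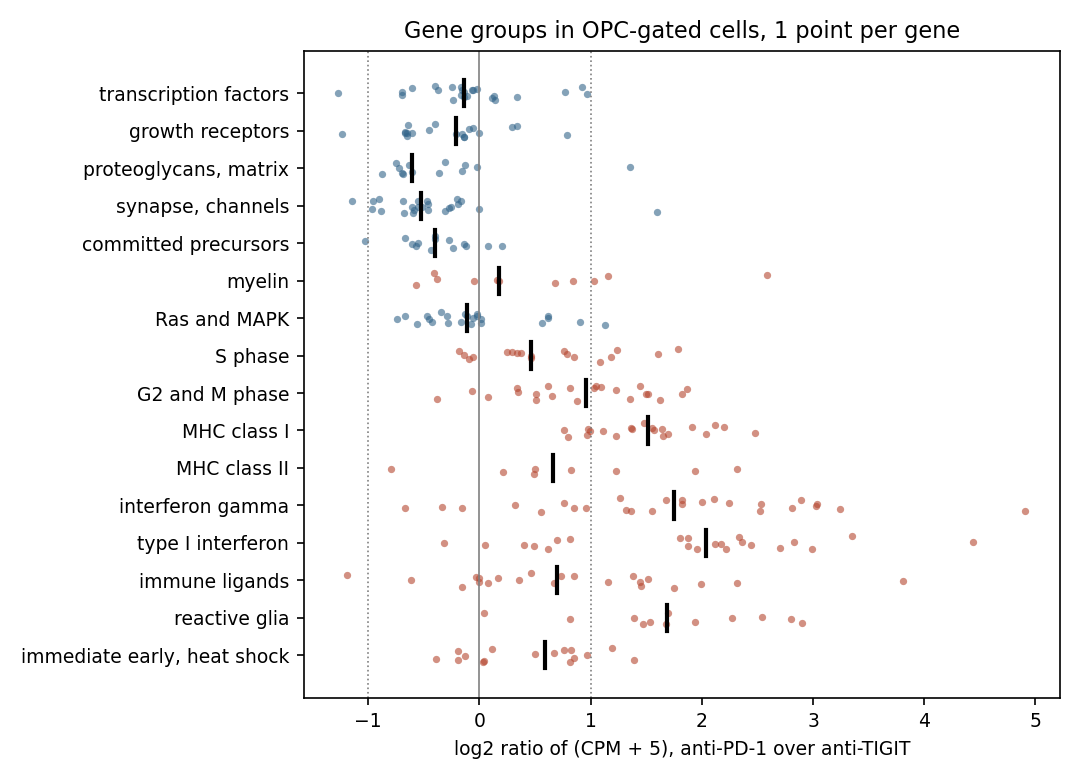
Log2 ratio between the libraries in OPCs (anti-PD-1 to anti-TIGIT, CPM plus 5) for each counted gene of the gene groups, 1 point per gene; black bars are group medians, dotted lines mark a 2-fold ratio and the colour gives the sign of the median. The points of MHC class I (median 1.52), interferon gamma (1.75), type I interferon (2.04) and reactive glia genes (1.69) lie mostly above 0, and those of matrix (-0.61) and synapse and channel genes (-0.53) mostly below it.

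Surface ligands and secreted signals through which OPCs meet immune cells differed gene by gene. Of 22 counted genes, 9 were at least 2-fold higher and 1 lower, with a median log2 ratio of 0.70. With the 5 genes at 0 UMIs in anti-TIGIT OPCs held at the floor of 3 UMIs, the median was 0.27. Cd274, which encodes PD-L1, the ligand of PD-1, had 228 UMIs in anti-PD-1 OPCs and 5 in anti-TIGIT OPCs, or 61.2 and 11.7 CPM (5.24-fold, log2 2.39, 1.15 to 4.03). The ligands of TIGIT stood at 15.0 and 14.0 CPM (Pvr), 40.5 and 30.3 CPM (Nectin2) and 25.7 and 25.7 CPM (Nectin3). None of them reached 2-fold. The T cell attractant Cxcl10 stood at 65.2 CPM in anti-PD-1 OPCs and 0 UMIs in anti-TIGIT OPCs, at least 9.31-fold higher, although a UMI was present in only 2.51% of thinned anti-PD-1 OPCs. Lgals9, a ligand of TIM-3, stood at 102 and 16.3 CPM (6.22-fold) and Csf1, a growth factor of microglia, at 59.8 and 18.7 CPM (3.20-fold). Ccl5, a chemokine made by T cells, was the gene that stood lower, at 35.1 and 86.3 CPM.

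Genes of reactive glia were higher in anti-PD-1 OPCs. All 12 counted genes stood above 0 and 10 were at least 2-fold higher, with a median log2 ratio of 1.69. Serpina3n, a secreted serine protease inhibitor, stood at 1095 CPM (4082 UMIs) and 142 CPM (61 UMIs), 7.69-fold higher (log2 2.94, 2.58 to 3.33), and a UMI was present in 61.1% and 30.4% of thinned OPCs. T cells, which should lack it, had a Serpina3n UMI in 0.680% and 0.0858%. The complement component C4b stood at 216 and 63.0 CPM (3.43-fold), the intermediate filaments Vim at 246 and 60.7 CPM (4.06-fold) and Gfap at 70.3 and 21.0 CPM (3.35-fold), and the lipid carrier Apod at 78.3 and 7.00 CPM. Serping1, the C1 inhibitor, stood at 24.1 CPM and 0 UMIs, at least 3.45-fold higher. Apoe, the main lipid carrier of glia, stood at 1019 and 992 CPM.

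The transcription factors of the lineage differed little. Of 24 counted factors, 0 were at least 2-fold higher and 1 lower, with a median log2 ratio of -0.14. Sox8, a SoxE factor of oligodendrocyte development, was that gene, at 154 CPM (573 UMIs) and 378 CPM (162 UMIs), lower by a log2 ratio of -1.30 (-1.55 to -1.04). Sox6, which holds OPCs back from maturing, stood at 356 and 581 CPM, and Sox11, a factor of immature neural cells, at 141 and 72.3 CPM. Sox10, Olig2 and Nkx2-2 (112 and 126 CPM) were within counting error of equality.

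Receptors for growth and guidance signals were likewise mostly slightly lower. Of 19 receptors, 0 were at least 2-fold higher and 1 lower (4.04% and 2.82% of all genes), with a median log2 ratio of -0.21. The list had 15 receptors below 0 and 4 above, against 5741 of all 13250 genes above 0. The neurotrophin receptors Ntrk2 and Ntrk3 stood at 264 and 413 CPM and at 151 and 233 CPM, the netrin receptor Dcc at 246 and 389.7 CPM and the neuregulin receptor Erbb4 at 471 and 646 CPM. Fgfr3, the gene past 2-fold, rested on 26 and 10 UMIs.

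Matrix genes stood lower in anti-PD-1 OPCs almost throughout. Of 13 counted genes, 12 lay below 0, while 5741 of all 13250 genes stood above 0. The median log2 ratio of the list was -0.61, although none of the 13 was 2-fold lower, and 1 was 2-fold higher. Vcan, the chondroitin sulphate proteoglycan versican, stood at 632 CPM (2357 UMIs) and 1169 CPM (501 UMIs), a log2 ratio of -0.89 (-1.03 to -0.75). Gpc5, a glypican, stood at 428 and 693 CPM, Cspg4, the NG2 proteoglycan, at 242 and 371 CPM and Bcan, brevican, at 535 and 686 CPM. In Tnr the log2 ratio was -0.70 (-0.83 to -0.56). Tnc, tenascin-C, was the exception, with 29 UMIs and 0 UMIs. Its anti-PD-1 level lay near the anti-TIGIT floor of 7.00 CPM, so the 2-fold call rests on the 5 CPM added. The 17 cycling OPCs held 15 of the 29 UMIs. The same list had a median of 0.00 in oligodendrocytes.

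Genes of synapses and ion channels stood lower as well. Of 24 genes, 22 lay below 0, with a median log2 ratio of -0.53, and 1 was 2-fold lower and 1 higher. Of all 13250 genes, 5741 stood above 0. Grin3a, an NMDA receptor subunit, stood at 99.2 and 226 CPM (log2 -1.19, -1.52 to -0.85), and the adhesion genes Dscam and Ntm at 391 and 733 CPM and at 269 and 502 CPM. Gria2, an AMPA receptor subunit, stood at 274 and 404 CPM. Cacng5, an AMPA receptor auxiliary subunit, was the gene 2-fold higher, at 45.6 and 11.7 CPM with 5 UMIs in the anti-TIGIT sum. Grm5 was equal in the libraries.

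Gene length moved with these directions. Genes at least 2-fold lower in anti-PD-1 OPCs had a median genomic span of 59.4 kb and those at least 2-fold higher 13.2 kb, against 26.3 kb for all genes counted. Spans over 100 kb were found in 37.3%, 10.7% and 16.9% of them. The synapse and channel list had a median span of 258 kb and the matrix list 67.8 kb, whereas MHC class I genes had 5.21 kb and lineage transcription factors 5.23 kb. The part of span, or of the higher share of ribosomal protein UMIs, in these differences was not tested.

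Several of the 12 genes named as lower belong to the same kinds. They include the calcium release channel Ryr3 (18.2 and 70.0 CPM), the synaptic vesicle priming factor Unc13c (24.7 and 88.7 CPM), the potassium channel Kcnn2 (25.7 and 81.7 CPM), the calcium pump Atp2b2 (19.6 and 60.7 CPM), the serotonin receptor Htr1f (9.66 and 37.3 CPM) and the cell surface proteins Adam23 (27.6 and 88.7 CPM) and Cdh4 (13.9 and 49.0 CPM). Dusp15, a phosphatase of the lineage, stood at 16.4 and 58.3 CPM. Each rested on 16 to 38 UMIs in the anti-TIGIT sum. Jchain, at 494 and 2450 CPM, rested on the single barcodes described above, and its log2 ratio of -2.30 (CPM plus 5) turned to 2.78 with strict exclusion sums, 2.85 with the gate applied to thinned barcodes and 2.01 in OPCs with Y-linked UMIs.

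Genes of committed precursors were mostly slightly lower in anti-PD-1 OPCs, and myelin genes were mixed. Of 14 counted genes of committed precursors, 12 stood below 0 and 2 above, against 5741 of all 13250 genes above 0. In this list 1 gene was 2-fold lower and 0 higher, with a median log2 ratio of -0.40. Tns3, a focal adhesion protein of new oligodendrocytes, was that gene, at 103 and 215 CPM. Gpr17, a receptor that marks the committed stage, stood at 154 and 247 CPM. Of 11 myelin genes, 3 were at least 2-fold higher and 0 lower, with a median of 0.18. Cldn11, the tight-junction protein of myelin, had 513 UMIs and 8 UMIs, or 138 and 18.7 CPM (7.37-fold). Mbp, a main protein of myelin, stood at 1920 and 1197 CPM, and free myelin RNA could reach every barcode of a nerve suspension. A Cldn11 UMI was found in 18.8% and 3.26% of thinned OPCs against 2.24% and 2.19% of C1q-positive cells, which should lack it.

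OPCs that had begun to commit were counted by Gpr17, Bmp4 and Enpp6. At least 3 UMIs of these together were found in 68 of 615 anti-PD-1 OPCs (11.1%, 8.69 to 13.8%) and 12 of 97 anti-TIGIT OPCs (12.4%, 6.56 to 20.6%). The intervals overlapped. The sum is a range and not a type: 71 and 19 OPCs lay just below the limit at 2 UMIs, 25 and 6 just inside it at 3, and 55.0% and 39.2% held none. After thinning, 11 of 597 (1.84%) and 4 of 92 (4.35%) passed the limit, the anti-TIGIT share again the higher. With at least 6 UMIs the order turned, at 2.11% and 1.03%.

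The Ras pathway, which neurofibromin restrains, gave little difference between the treatments. Of 23 genes, 1 was at least 2-fold higher and 0 lower, with a median log2 ratio of -0.11. Nf1 itself stood at 85.8 and 119 CPM. A 5′ tag outside the floxed or interrupted part checks nothing about the deletion. Spry2, a feedback inhibitor of growth factor signalling, was the gene past 2-fold, at 56.9 and 23.3 CPM with 10 UMIs in the anti-TIGIT sum, and its relative Spry1 stood at 422 and 224 CPM. The Ras-ERK target Dusp6 stood at 77.8 and 77.0 CPM and the ETS factors Etv4 and Etv5 at 154 and 156 CPM and at 163 and 170.3 CPM. The levels of these target genes were nearly equal.

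Growth signals linked to optic glioma were also close. Of 12 counted genes, 0 were at least 2-fold higher and 1 lower, with a median of -0.27. Midkine (Mdk), a growth factor, stood at 265 and 322 CPM and its relative pleiotrophin (Ptn) at 1080 and 1050 CPM, while their receptor Alk stood at 22.8 and 58.3 CPM. Nlgn3, a synaptic protein shed in response to neuronal activity, stood at 102 and 142 CPM. Cholesterol synthesis genes, which myelinating cells need, had 0 of 16 past 2-fold in either direction, with a median of -0.14. Of 12 apoptosis genes, 0 were higher and 1 lower, the low-count Pmaip1, with a median of 0.27.

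Immediate early genes, which many stimuli raise within minutes, tissue dissociation among them, were mostly higher. Of 16 stress and immediate early genes, 2 were at least 2-fold higher and 0 lower, with a median of 0.59. With the 1 gene at 0 UMIs in anti-TIGIT OPCs held at the floor of 3 UMIs, the median was 0.31. Jun stood at 2712 and 1185 CPM (2.29-fold, log2 1.19, 1.07 to 1.33), Ier3 at 387 and 145 CPM and Fos at 4625 and 2637 CPM. The heat shock gene Hsp90aa1 stood at 406 and 464 CPM. Whether dissociation had a part in these or the other differences was not tested.

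Cycling OPCs were counted in the anti-PD-1 library, and none was found among the 97 OPCs of the anti-TIGIT library. At least 2 UMIs of Mki67 and Top2a together, genes of proliferating cells, were held by 17 of 615 anti-PD-1 OPCs (2.76%, 1.62 to 4.39%) and by 0 of 97 anti-TIGIT OPCs, which allows a share of up to 3.09% by a floor of 3 counts and 3.73% by the exact upper limit. The first share lies under both, so a difference was not detectable at this depth. At exactly 1 UMI, below the limit, lay 12 and 3 OPCs, and 4 of the 17 were at exactly 2. After thinning, 9 of 597 (1.51%, 0.692 to 2.84%) passed the limit against 0 of 92, which allows up to 3.26% by the floor and 3.93% by the exact limit. Oligodendrocytes, which do not divide, passed it in 0.229% and 0.156% of cells, and T cells in 5.35% and 5.10%.

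The 17 cycling OPCs of the anti-PD-1 library were compared with the 598 others of that library. They were deeper, with a median of 10973 UMIs against 5711. Among 13003 genes counted in this contrast, 7.48% stood 2-fold or more above the others and 13.3% below, and the median gene stood at -0.11. All 18 genes of DNA replication and all 21 of mitosis were at least 2-fold higher, with median log2 ratios of 2.36 and 4.98. Pcna, the sliding clamp of DNA replication, stood at 356 CPM in cycling OPCs and 65.6 CPM in the others. The largest ratios upward included the histone Hist1h2ae (743 and 14.7 CPM), the cytokinesis regulator Racgap1 (335 and 6.22 CPM), the condensin subunit Smc2 (335 and 15.3 CPM) and H2afx (1341 and 73.0 CPM). The gate for cycling cells was made of 2 such genes, so this describes the cells.

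Cell cycle regulators differed gene by gene, and several matrix genes were lower in cycling OPCs. Of 12 cyclin D genes, their kinases and kinase inhibitors, 3 were 2-fold or more higher and 1 lower, with a median of 0.29. The inhibitors Cdkn1a, which encodes p21, at 392 and 154 CPM (log2 1.35, 0.98 to 1.69), Cdkn2c, at 387 and 59.4 CPM, and Cdkn2d, at 191 and 63.4 CPM, were higher. Cdkn2b, with 1 UMI in cycling OPCs, stood at 5.16 and 15.8 CPM. Bcan stood at 186 and 554 CPM (log2 -1.58, -2.10 to -1.10), C1ql1 at 206 and 578 CPM and Vcan at 289 and 651 CPM, and 5 of 12 matrix genes were at least 2-fold lower. Tnc stood at 77.4 and 3.96 CPM, the only matrix gene 2-fold higher. The transcriptional repressor Id2 stood at 36.1 and 182 CPM, and the neuregulin receptor Erbb3 had 0 UMIs in cycling OPCs and 46.1 CPM in the others, at least 2.98-fold lower. Tac1, the precursor of substance P, also had 0 UMIs in cycling OPCs, against 49.8 CPM. Class I genes were level, with a median of 0.13 and 0 of 20 past 2-fold, and B2m stood at 1646 and 1545 CPM. The interferon gamma genes had a median of -0.09 and 1 of 26 past 2-fold. Of 22 type I interferon genes, 5 were 2-fold or more higher and 1 lower, with a median of 0.09. Of 22 immune ligand genes, 0 were higher and 10 lower, with a median of -0.92. Of these 22 ligand genes, 7 had 0 UMIs in cycling OPCs. Over all genes in this contrast, 7.48% were higher and 13.3% lower.

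Between the libraries, cycle genes depended on those 17 cells. The mitosis list had a median log2 ratio of 0.96 with 11 of 22 genes at least 2-fold higher in anti-PD-1 OPCs, and -0.70 without the cycling cells. That removal took cells from the anti-PD-1 library alone, so a lower median follows in part from it. With the 7 genes at 0 UMIs in anti-TIGIT OPCs held at the floor of 3 UMIs, the median over all OPCs was 0.47. The replication list had a median of 0.46, with 5 of 18 higher. Cdkn1a stood at 167 and 74.7 CPM over all OPCs (2.23-fold, log2 1.16, 0.64 to 1.72). It was the 1 gene of 12 cell cycle regulators past 2-fold.

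A set of genes outside every list marked part of the anti-PD-1 OPCs. Of the 12 genes named as higher, 8 belonged to no list, and they were read as a panel after their values had been seen. Fcgr2b, the inhibitory receptor for immunoglobulin G, had 840 UMIs in anti-PD-1 OPCs and 1 in anti-TIGIT OPCs, or 225 and 2.33 CPM (log2 6.59, 4.11 to 11.90). Dlk1, a membrane protein related to Notch ligands, stood at 70.5 and 2.33 CPM, Clca3a1, of the chloride channel accessory family, at 61.7 and 2.33 CPM, and Hmga2, a chromatin protein of immature cells, at 60.9 and 2.33 CPM, each with 1 UMI in the anti-TIGIT sum. The others had 0 UMIs there. Vgf, a secreted neuropeptide precursor, stood at 57.9 CPM (at least 8.28-fold higher), Bcl3, a partner of NF-kappaB, at 52.0 CPM (at least 7.43-fold), the synaptic vesicle protein Sv2c at 47.2 CPM (at least 6.74-fold) and the scramblase family member Plscr2 at 39.4 CPM (at least 5.63-fold).

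The 8 genes were often found in the same cells. At least 2 panel UMIs were found in 251 of 615 anti-PD-1 OPCs (40.8%, 36.9 to 44.8%) and in 1 of 97 anti-TIGIT OPCs (1.03%, 0.0261 to 5.61%). A further 89 and 2 held exactly 1, so the cut divides a range, and 275 (44.7%) and 94 (96.9%) held none. Among 303 anti-PD-1 OPCs with a UMI of another panel gene, 61.7% held a Fcgr2b UMI, against 11.9% of 312 without. The same shares were 30.1% and 1.43% for Clca3a1 and 19.5% and 2.48% for Hmga2. Single anti-PD-1 OPCs held 23.8% of the Hmga2 UMIs, 12.5% of those of Vgf and 9.51% of those of Dlk1. For the other panel genes the highest such share was 4.08%. The 17 cycling OPCs held 60 Hmga2 UMIs and the 598 others 167, and 12 of the 17 held at least 2 panel UMIs. Deep cells hold more UMIs of any gene, and the median depth was 6969 UMIs in OPCs with at least 2 panel UMIs and 4810 in those with none. After thinning to 2000 UMIs, 148 of 597 (24.8%, 21.4 to 28.5%) and 0 of 92 held at least 2, with the same limits for 0 of 92. The 8 genes had been named for their ratio between these libraries. Their near absence from anti-TIGIT OPCs, before and after thinning, therefore followed from that choice and is no separate result.

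The panel was also read in the other classes. Without Fcgr2b and Bcl3, which immune cells express, at least 2 UMIs of the remaining 6 genes were found in 171 anti-PD-1 OPCs (27.8%), in 2 of 2184 oligodendrocytes (0.0916%), 1 of 2473 C1q-positive cells (0.0404%) and 29 of 3288 T cells (0.882%) of the same library. In fibroblasts the share was 6.45%. In the anti-TIGIT library it was 1 of 97 OPCs (1.03%), 1 of 1917 oligodendrocytes (0.0522%), 0 of 1581 C1q-positive cells, 6 of 1432 T cells (0.419%) and 9 of 78 fibroblasts (11.5%). Median depths were 7203 UMIs in oligodendrocytes, 5167 in C1q-positive cells and 3516.5 in T cells. Fcgr2b had a UMI in 23.5% of thinned anti-PD-1 OPCs, against 1.18% of T cells and 54.0% of C1q-positive cells. Microglia markers summed to 94.5 CPM in OPCs with at least 2 panel UMIs and 60.6 CPM in those with none, with Ms4a7 at 0 in both and Pf4 at 0 in the first, and to 11032 CPM in C1q-positive cells. Of 5 counted microglia markers, Lyz2 (36.5 and 5.11 CPM) was 2-fold higher in the first set and 0 were lower, with a median log2 ratio of 0.05. Of 3 counted T cell markers, Ptprc (16.1 and 2.19 CPM) was 2-fold higher and 0 were lower, with a median of -0.19. OPCs had the highest share for the 6 genes in the anti-PD-1 library, and fibroblasts in the anti-TIGIT library.

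Within the anti-PD-1 library, OPCs with at least 2 panel UMIs also held more RNA of reactive and interferon genes than OPCs with none. In this contrast 2.77% of 12755 genes were at least 2-fold higher and 1.94% lower. Serpina3n stood at 1748 and 325 CPM (log2 2.43, 2.28 to 2.57), Vim at 406 and 73.8 CPM, Cldn11 at 209.8 and 43.1 CPM and Cxcl10 at 126 and 3.65 CPM. Of 12 reactive genes 6 and of 26 interferon gamma genes 13 were at least 2-fold higher, with medians of 1.04 and 0.96, and 1 of 20 class I genes, with a median of 0.68. Sox11 stood at 199.6 and 81.8 CPM. Lower in these cells were C1ql1 (321 and 876 CPM, log2 -1.45, -1.59 to -1.31), Bcan (386 and 738 CPM), Vcan (477 and 844 CPM), Sox8 (99.8 and 231 CPM) and Tac1 (16.1 and 90.6 CPM). Pdgfra (756 and 1028 CPM), Olig1 (2757 and 4072 CPM) and Sox10 (595 and 663 CPM) were high in both sets. The depth and the ribosomal share (10.8% and 7.91%) moved with the panel, and their part was not tested. Jchain stood at 785 and 205 CPM (1463 and 280 UMIs). A single barcode of the first set held 1167 of those UMIs, so the higher level rests largely on that barcode.

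The remaining anti-PD-1 OPCs were then set against the anti-TIGIT OPCs without panel UMIs. Of 11538 genes, 2.84% were at least 2-fold higher and 2.33% lower. Class I genes had a median log2 ratio of 1.01 with 10 of 20 at least 2-fold higher, interferon gamma genes 1.05 with 12 of 23, type I interferon genes 1.40 with 13 of 21 and reactive genes 1.39 with 7 of 10. B2m stood at 974 and 499 CPM, H2-D1 at 1256 and 494 CPM, Iigp1 at 151 and 7.27 CPM and Isg15 at 118 and 7.27 CPM. The interferon difference was thus also present in OPCs without the panel, at a smaller size. The matrix list had a median of -0.16 there, and C1ql1 stood at 876 and 874 CPM, Bcan at 738 and 688 CPM and Vcan at 844 and 1199 CPM. Vim stood at 73.8 and 60.6 CPM. The matrix and C1ql1 differences between the libraries were smaller without the panel cells, whereas that of Jun (2869 and 1175 CPM) was not.

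**Figure D5:**
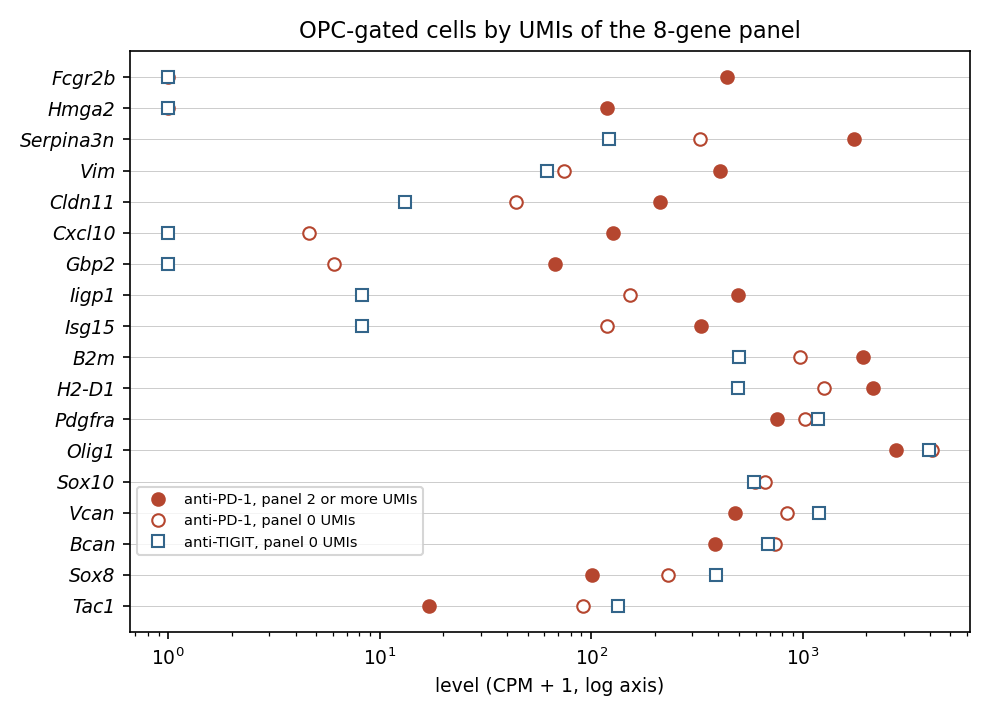
Level of selected genes (CPM plus 1, log axis) in anti-PD-1 OPCs with at least 2 UMIs of the 8-gene panel (251 cells), anti-PD-1 OPCs with none (275 cells) and anti-TIGIT OPCs with none (94 cells); panel genes are at 0 in the last 2 by construction. Iigp1, Isg15, B2m and H2-D1 fall across the 3 sets in that order, from 1922 to 974 to 499 CPM for B2m, while Bcan is at 738 and 688 CPM in both sets without panel UMIs and at 386 CPM in the first.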

How the data were processed

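UMI counts per gene and barcode were deposited by the authors as 1 filtered matrix per library, made with Cell Ranger 8.0.0 (anti-PD-1) and 8.0.1 (anti-TIGIT) per the file headers. The build mm10, Seurat 5.0.3 and R 4.1.1 are named per the submitters' processing notes, and values from Seurat were not used here. The matrices cover 32285 genes, and all of their counts were raw.

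Members, gene lists and named genes were chosen with earlier results of these data known, so no list is independent evidence. OPCs and the other classes were gated by UMI sums among barcodes of 500 or more genes and no more than 10% mitochondrial UMIs: oligodendrocytes by at least 3 UMIs of Mog and Mag, C1q-positive cells by at least 10 of the C1q genes, T cells by at least 3 of the Cd3 genes and fibroblasts by at least 10 of the collagen genes and Dcn, each without the markers of the others. For each class, the UMIs of a library were added up and expressed as CPM with exact Poisson intervals, ratios with exact conditional binomial intervals and shares with exact Clopper-Pearson intervals, all at 95% and covering counting error only, and a share of 0 also with a floor of 3 counts. Per-cell shares were read after thinning each cell to 2000 UMIs, leaving out shallower cells. Doublets were kept, and removed with Scrublet as an alternative. With 1 library per group no p-values were computed. The ratio intervals and the calling by size were tested on simulated data.

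Genes named between libraries were the 12 largest ratios of CPM plus 5 in each direction among genes that reached 50 counts and were detected in 5% or more of the OPCs of either library. The choice passed over mitochondrial, ribosomal protein, haemoglobin, T cell receptor and sex-linked genes, immunoglobulin genes with their constant regions, predicted genes without a name, and genes under 25% of another class's highest CPM, which free RNA could give. The same rule was applied to cycling against other OPCs, within the anti-PD-1 library alone, since the other library held no cycling OPC. The 20 class genes had the largest smaller ratio, over both libraries, to the highest other class. Genes of lists and the 8-gene panel, which was put together after its values were seen, are named as members of those lists, and single examples outside these rules were chosen after their values were seen. Some genes that these rules name are not reported here. Promoters are from RefSeq on GRCm38.p6. Software: scanpy 1.11.5 and matplotlib 3.10.9 under Python 3.11.15, with pandas 2.3.3, scipy 1.17.1 and numpy 2.4.6.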

Additional observations from a re-analysis of the deposited data

Results flagged for a closer look

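Jchain differed in direction between the sexes of the cells. Among OPCs with Xist and no Y-linked UMI, its level in anti-PD-1 relative to anti-TIGIT OPCs was -4.83 on the log2 scale of CPM plus 5, and among OPCs with Y-linked UMIs and no Xist it was 2.01. The difference between these values was not tested. In the anti-TIGIT library, 1 barcode held 1017 of the 1050 Jchain UMIs of OPCs, and in the anti-PD-1 library 1 barcode held 1167 of 1841, while a Jchain UMI was found in 56.6% and 24.7% of OPCs (anti-PD-1 and anti-TIGIT). After thinning, oligodendrocytes had a Jchain UMI in 25.5% and 12.2% of cells, close to the 28.1% and 13.0% of OPCs.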

How the results depend on the processing

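No paired analysis was possible because each treatment has 1 library. Over 20 other settings and 3 chosen after seeing the data (OPCs without a Jchain UMI, the gate applied to thinned barcodes, OPCs without panel UMIs), 360 of the values that answer a comparison stayed close to those reported and 56 did not. The anti-PD-1 share of OPCs (4.88%) was 4.28% with Pdgfra of at least 2 and a marker sum of at least 6, 4.12% with strict exclusion sums, 4.46% with limits of 200 genes and 20% mitochondrial UMIs, 5.75% with limits of 1000 genes and 5%, 5.46% in Xist-positive cells, 6.20% in cells with Y-linked UMIs and 2.18% without panel UMIs. The anti-TIGIT share (1.35%) was 2.50% and 1.03% in Xist-positive and Y-linked cells. The difference (3.53 points) was 2.91 with strict exclusion sums, 4.23 with at least 1000 genes, 2.97 and 5.16 by sex and 0.872 without panel UMIs. The last value follows in part from the choice of the panel by its ratio between the libraries. Genes at least 2-fold higher (336) numbered 221 in Xist-positive cells, 505 in cells with Y-linked UMIs, 162 with 20 CPM added, 137 and 535 with at least 200 and 10 counts and 103 without panel UMIs. Genes lower (165) numbered 73, 314, 39, 31, 374 and 49 in the same order, and 295 with 1 CPM added. In Xist-positive OPCs the medians were 2.28 for class I, 2.73 for class II, 2.53 for interferon gamma and -0.33 for mitosis genes. In OPCs with Y-linked UMIs they were 2.92 for class II, 1.41 for immune ligands, 2.50 for reactive, 1.07 for replication and 2.66 for mitosis genes. Class II had a median of 2.16 without Scrublet doublets, 2.83 with the thinned gate, -0.16 without Jchain UMIs and -0.05 without panel UMIs. Without panel UMIs the medians were 1.05 for interferon gamma, 1.40 for type I interferon and 0.80 for myelin genes. With 20 CPM added, type I interferon genes had 1.24 and reactive genes 1.05. With cells thinned before summing, reactive genes had 2.28 and mitosis genes 0.08, which was -0.70 in non-cycling OPCs. Cycling OPCs of the anti-PD-1 library (2.76%) were 1.51% after thinning, 4.72% with at least 1 UMI and 1.09% without panel UMIs. Committed OPCs (11.1% and 12.4%) were 1.84% and 4.35% after thinning and 2.11% and 1.03% with at least 6 UMIs, and 14.3% in Xist-positive anti-PD-1 cells. The ratio of Jchain (log2 -2.30 with 5 CPM added) turned to 2.78 with strict exclusion sums, 2.01 in cells with Y-linked UMIs and 2.85 with the thinned gate. In all anti-TIGIT OPCs, 1 barcode held 1017 of the 1050 Jchain UMIs. Several of the settings left fewer cells, and the cause of the changes with setting was not tested. Depth limits the anti-TIGIT side: 97 OPCs and 428553 UMIs put the floor of 3 UMIs at 7.00 CPM, against 0.805 CPM in the anti-PD-1 sum, and spread between mice cannot be measured.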

Other observations

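The share of panel-positive OPCs differed between cells of the anti-PD-1 library called by sex. At least 2 panel UMIs were found in 40 of 175 OPCs with Xist and no Y-linked UMI (22.9%, 16.9 to 29.8%) and in 109 of 221 OPCs with Y-linked UMIs and no Xist (49.3%, 42.6 to 56.1%). After thinning to 2000 UMIs the values were 20 of 172 (11.6%, 7.25 to 17.4%) and 63 of 219 (28.8%, 22.9 to 35.3%), and the median depths before thinning were 5416 and 6254 UMIs. The number of mice behind the cells of each kind is not given in the sources used here, and the difference was not tested.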
